A study of Mus musculus with 26 samples.

Results

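Immortalized mouse cell lines that had been started from LT-HSC, the long-term hematopoietic stem cells, and kept with doxycycline (dox) were compared with granulocyte macrophage progenitors (GMP) taken fresh from bone marrow. The 7 arrays were chosen by their titles alone: 3 arrays of lines of LT-HSC origin with dox at 72 h (lines B6-1, B6-2 and B6-3, 1 array each) and 4 arrays of sorted wild-type GMP, of 26 arrays in the series. The comparison asks how close lines of stem cell origin lie to a normal committed progenitor. All cells were of strain C57BL/6. The lines were harvested from liquid medium, and the GMP were sorted by flow cytometry from marrow and received no dox. The study concerns MLL-AF9, a fusion of the KMT2A (MLL) and MLLT3 (AF9) genes found in acute myeloid leukaemia, and as background the study's mouse model switches the fusion on with dox. Whether the hours count from adding or from withdrawing dox, the sort gates and the ages of the animals were not found in the labels. Culture, immortalization, dox, the fusion and the cell of origin all differ together between the groups, so their parts in a difference cannot be told apart. The labels call the replicates biological without saying that each sort used its own animals, and p-values measure the spread between these samples only.

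A GMP is the marrow progenitor that gives rise to neutrophils and to monocytes. It makes the primary granule proteases and myeloperoxidase under transcription factors of the C/EBP, PU.1 and IRF families, and it has shut down the genes by which stem cells renew themselves. MLL fusions are known to hold HOXA cluster genes and MEIS1 active, which normally fall silent as stem cells mature. This is thought to be part of how such fusions let progenitors divide without end.

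Values are log2 signals of Affymetrix probe sets as the authors deposited them, with 1 probe set for each of 19937 genes. Array medians lay between 5.81 and 5.91 and interquartile ranges between 2.68 and 2.92 over the 26 arrays,. Marker genes were examined in both groups. All 12 primary granule genes had a mean above 5.86, the median of all values, in the lines and in sorted GMP, and all 9 measured T and NK cell genes had a mean below it in both. The same held in every other cultured group, so these markers cannot set the lines apart from those groups. Xist, the RNA of the inactive X chromosome, had a mean of 10.93 in the lines and 10.82 in sorted GMP, while the Y-linked genes Uty, Kdm5d and Eif2s3y had means between 2.72 and 4.15 in both groups. In such bulk samples, fewer cells of a type and less RNA per cell cannot be told apart.

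Of 19937 genes, 3572 (17.9%) differed between the lines with dox and sorted GMP by limma's moderated test at a Benjamini-Hochberg adjusted p under 0.05, which is what "called" means from here on. The lines were higher for 1750 genes (8.78%) and lower for 1822 (9.14%). These shares of all genes are the ones to set beside each list count of this comparison below. Most of these differences were small: 384 genes (1.93%) were called with at least a 2-fold change, 271 higher (1.36%) and 113 lower (0.567%). The median difference over all genes was -0.024 on the log2 scale. The 3 line arrays lay wholly above or wholly below the 4 sorted arrays for 5899 genes (29.6%).

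A gene that misses the call is not shown to be alike, so likeness was counted from the interval of each difference. The 95% interval lay wholly within 2-fold in either direction for 19012 genes (95.4%). Among the 10756 genes whose mean exceeded the median of all values in at least 1 of both groups, this held for 9958 (92.6%). The same lines set against sorted LT-HSC gave 6768 called genes (33.9%) and 17923 genes (89.9%) with an interval within 2-fold. An interval lay wholly outside 2-fold for 193 genes (0.968%) against GMP and for 708 genes (3.55%) against LT-HSC. Both comparisons use the same 3 line arrays. The root mean square difference over all genes between a line array and the sorted GMP mean was 0.360 for line B6-2, 0.366 for B6-3 and 0.391 for B6-1 on the log2 scale. The same distance to the sorted LT-HSC mean was 0.591, 0.573 and 0.568. Each of the 3 line arrays therefore lay nearer to sorted GMP than to the sorted cell its line came from.

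**Figure D1:**
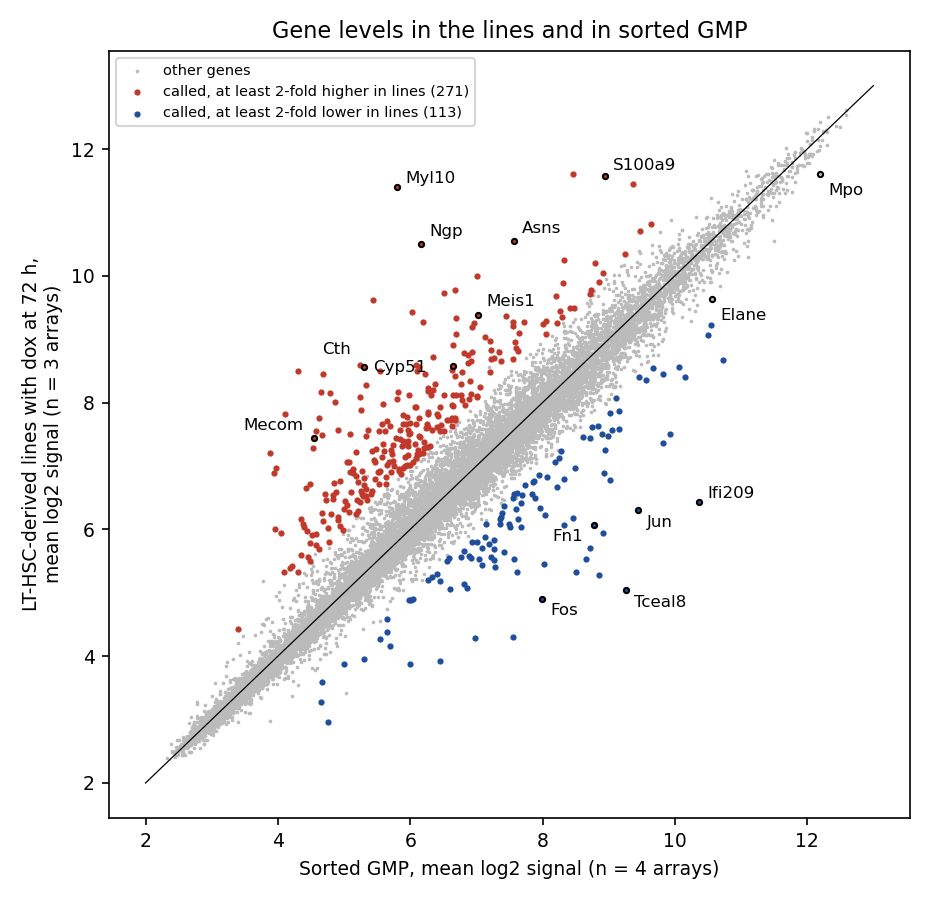
Mean log2 signal of each gene in sorted GMP (x axis, n = 4 arrays) and in the lines with dox (y axis, n = 3 arrays), with the 271 genes called at least 2-fold higher in red, the 113 called at least 2-fold lower in blue, all other genes in grey and the line of equality in black. Most genes lie along the line of equality, and Myl10 and Tceal8 lie far from it on opposite sides.

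The nearness to GMP was described gene by gene with genes that separate the sorted cells: by moderated t of sorted GMP over sorted LT-HSC, the top 200 and the bottom 200 of the genes called with at least a 2-fold difference. The sorted arrays chose these genes, so only their levels in the lines are a description of interest. The array median over the 200 GMP-high genes was 8.76 ± 0.04 (SD, n = 3) in the lines with dox, beside 8.99 in sorted GMP and 6.93 in sorted LT-HSC. For 181 of the 200 genes the line mean was nearer to GMP than to LT-HSC. The array median over the 200 LT-HSC-high genes was 5.39 ± 0.09 (SD, n = 3) in the lines, beside 5.27 in GMP and 7.68 in LT-HSC, and 182 of these genes were nearer to GMP. On a scale that runs from 0 at the LT-HSC mean to 1 at the GMP mean, the median position of the lines was 0.848 for the GMP-high genes and 0.964 for the LT-HSC-high genes. The lines lay beyond the GMP mean for 51 of the GMP-high and 81 of the LT-HSC-high genes. The array medians of the LT-HSC-high genes in the lines and in GMP lie below 5.86, the median of all values. Positions near or beyond GMP therefore compare dim signals for many of these genes.

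**Figure D2:**
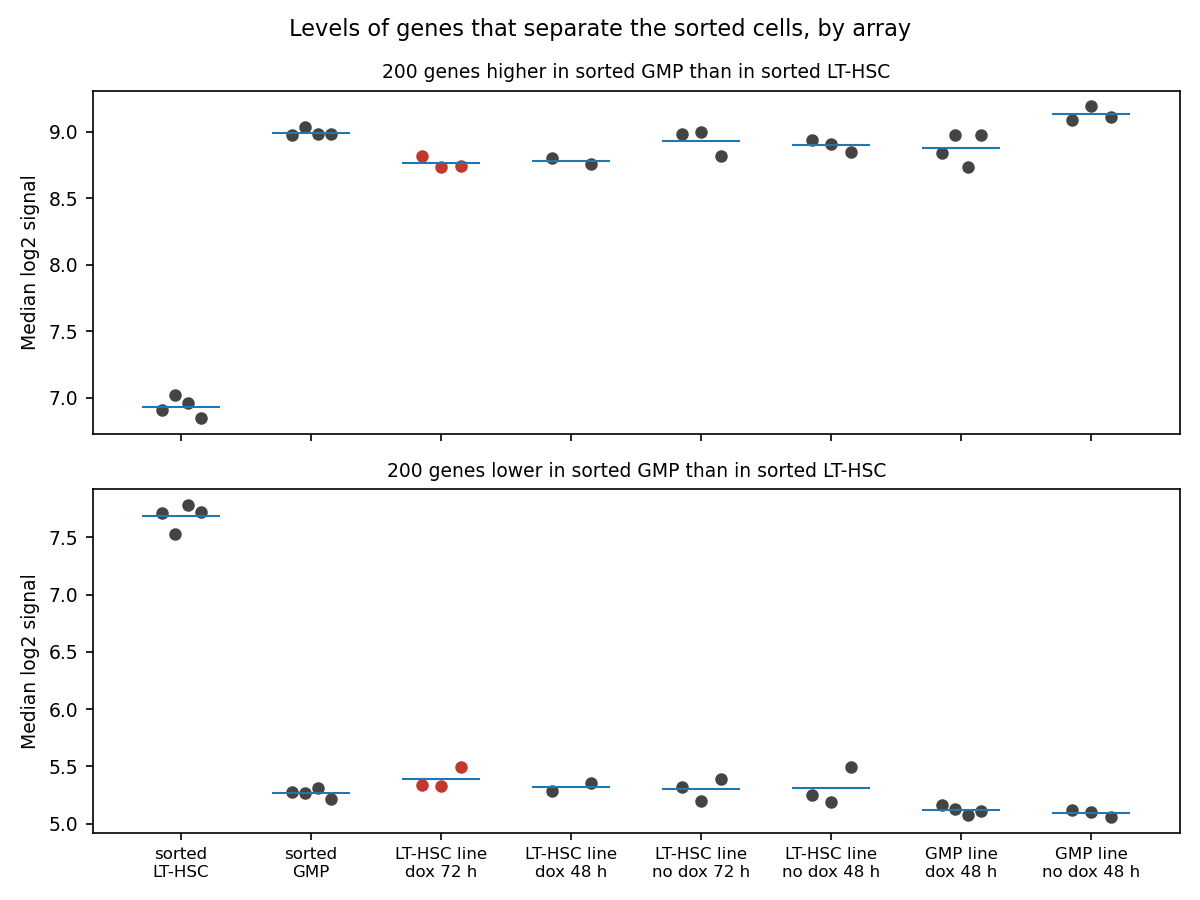
Median log2 signal per array (points) and mean over arrays (bars) of the 200 genes higher and the 200 genes lower in sorted GMP than in sorted LT-HSC, for the 8 groups, with the lines of LT-HSC origin with dox at 72 h in red. In both panels every array of every cultured group lies near the sorted GMP arrays and far from the sorted LT-HSC arrays, whose own levels are fixed by the choice of genes.

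The genes that went the other way were singled out by their position after their values were seen. Of the 200 LT-HSC-high genes, 18 were nearer to the stem cell level in the lines. They include Meis1, Hoxa9, Hoxa5 and Mecom, which are targets of MLL fusions, and Itga6, the laminin-binding alpha-6 integrin. Ifitm1, an interferon-inducible membrane protein gene, had a mean of 11.61 in the lines, 8.46 in GMP and 10.81 in LT-HSC. Stard4, a carrier of cholesterol inside cells, had 9.22, 7.55 and 8.77, and Tspan13, a tetraspanin, had 8.29, 6.77 and 9.45. Of the 200 GMP-high genes, 19 were nearer to the stem cell level. Among these, Sele, which encodes E-selectin, had a mean of 7.64 in the lines, 8.84 in GMP and 6.57 in LT-HSC. Abca9, a membrane transporter of the ABC family, had 3.88, 5.99 and 3.97. The lines were at the level of the stem cells, and both lay below the median of all values.

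The primary granule genes of the GMP had high signals in both groups. Of 12 measured genes, 4 were lower in the lines, 1 was higher and 7 were not called, with a median difference of -0.25 on the log2 scale. Elane, neutrophil elastase, measured 9.73, 9.67 and 9.51 in lines B6-2, B6-3 and B6-1 and 10.49, 10.59, 10.66 and 10.48 in sorted GMP. The line arrays were all below the sorted arrays, close together, and far above the sorted LT-HSC mean of 5.74. The difference was -0.92 ± 0.16 (SE), a 1.9-fold lower signal (adjusted p = 0.00021). Mpo, myeloperoxidase, measured 11.59, 11.59 and 11.62 in the lines and between 12.18 and 12.2 in sorted GMP, a difference of -0.59 ± 0.16 (adjusted p = 0.0104). Cst7, which encodes the protease inhibitor cystatin F, fell by 0.79, and Serpinb1a, an inhibitor of elastase, was 0.56 higher. Prtn3, Ctsg and Ms4a3 were not called, with differences of -0.38, -0.18 and 0.23.

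Among 20 regulators of the granulocyte and monocyte fates, 8 were lower and 3 higher. Cebpa, which is needed to form GMP, measured 7.95, 7.72 and 8.01 in the lines and 8.02, 8.01, 8.21 and 8.09 in sorted GMP. The groups overlapped, and the difference of -0.19 ± 0.16 was not called (adjusted p = 0.507). Neither Cebpe, which drives late granulocyte maturation, with 0.12 ± 0.12, nor Gfi1, a repressor of monocyte genes, with 0.12 ± 0.09, was called. Irf8, which favours the monocyte fate over the granulocyte fate, measured 7.65, 7.47 and 7.2 in the lines and between 8.65 and 8.86 in sorted GMP. The groups did not overlap, and the difference was -1.28 ± 0.18 (adjusted p = 1.08e-05). Klf4, a monocyte factor, fell by 1.26, Egr1 by 1.13, Cebpd by 0.76 and Spi1, which encodes PU.1, by 0.65. Id2, an inhibitor of helix-loop-helix factors, was 2.39 ± 0.37 higher (adjusted p = 3.91e-05). Without line B6-1, 1 regulator was called higher in place of 3.

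Monocyte and macrophage genes were lower in part. Of 15 measured genes, 7 were lower by limma's adjusted p and none was higher, and 1 was higher at an unadjusted p under 0.05. Csf1r, the receptor for macrophage colony-stimulating factor, measured 7.27, 6.67 and 6.99 in the lines and 8.48, 8.53, 8.49 and 8.48 in sorted GMP. The sorted arrays lay close together and all above the lines, and the difference was -1.52 ± 0.28 (adjusted p = 0.000396). Ly86, which encodes the MD-1 partner of a lipopolysaccharide sensor, fell by 2.42, Ms4a6c by 2.05, Clec7a, the beta-glucan receptor, by 1.04, and Cx3cr1, the fractalkine receptor, by 0.96. Ms4a6c belongs to a family of close copies, which a probe set may not keep apart. Ccr2, the receptor that brings monocytes out of marrow, was not called, with a difference of 0.44, nor were Cd68, with 0.27, and Adgre1, with 0.66.

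Many late neutrophil genes, which are made after the GMP stage, were higher in the lines. Of 18 genes, 10 were higher and none was lower, also at an unadjusted p under 0.05 in limma, with a median difference of 1.25. Ngp, a secondary granule protein, measured 10.67, 10.75 and 10.08 in lines B6-2, B6-3 and B6-1, and 4.92, 8.53, 5.76 and 5.42 in sorted GMP replicates 1 to 4. Every line array was above every sorted array, and sorted replicate 2 stood well above the other 3. The difference was 4.34 ± 0.56, a 20.3-fold higher signal (adjusted p = 4.08e-06), and it was 5.13 without sorted replicate 2. S100a9, a subunit of calprotectin, measured 11.74, 11.8 and 11.17 in the lines and 8.01, 10.29, 8.73 and 8.74 in sorted GMP, with the same replicate highest. Its difference was 2.63 ± 0.36 (adjusted p = 1.09e-05), and 3.08 without that replicate. In sorted LT-HSC, Ngp measured from 6.21 to 8.13 and S100a9 from 8.32 to 10.08. The mean over all 18 genes there ranged from 6.05 to 6.74.

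Another 8 late genes were also called higher. Ly6g, the neutrophil surface marker, was 2.98 higher, Mmp8, the neutrophil collagenase, 2.30, S100a8 2.08, Chil3 1.92, Pglyrp1 1.92, Camp 1.55, Lcn2 1.52 and Cxcr2, the neutrophil chemokine receptor, 0.97. The remaining genes of the list were not called. Mmp9, Cd177 and Retnlg, which mark the most mature neutrophils, had differences of -0.07, -0.13 and -0.73, and Ltf, lactoferrin, had 0.78. The count of late neutrophil genes called higher was between 8 and 10 whichever array was left out. The mean over the 18 genes ranged from 7.87 to 8.29 on the line arrays and from 6.55 to 7.54 on the sorted arrays, so the groups did not overlap. Whether the sorted replicates differed in how many maturing neutrophils they held was not tested.

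Of 18 chemokine receptor, integrin and selectin genes, 5 were higher, 3 lower and 10 not called. Itgam and Itgb2, which encode the 2 chains of the Mac-1 integrin, were 1.92 ± 0.19 (adjusted p = 1.08e-07) and 1.25 ± 0.14 (adjusted p = 6.56e-07) higher. Itgam measured 8.35, 8.41 and 8.13 in the lines and between 6.08 and 6.88 in sorted GMP. The groups were apart for both genes. Cxcr4, which retains cells in marrow, fell by 0.56. Itga6 was 1.23 higher and Cd44, the hyaluronan receptor, fell by 0.99. The count called higher was 3 when sorted replicate 1, sorted replicate 4 or line B6-3 was left out.

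Most MLL fusion target genes were higher in the lines than in sorted GMP. Of 15 measured genes, 10 were higher and 1, Zfp521, was lower, with a median difference of 0.66. The counts were 10 and 1 whichever array was left out. Hoxa9, a homeobox factor that MLL leukaemias depend on, measured 7.38, 7.4 and 7.41 in the lines and 5.94, 5.65, 6.11 and 5.85 in sorted GMP. The lines were nearly equal and above all sorted arrays, and the difference was 1.51 ± 0.09 (adjusted p = 1.14e-11). Its mean in sorted LT-HSC was 7.21. Meis1, the partner of HOXA9 on DNA, measured 9.38, 9.2 and 9.58 in the lines and between 6.83 and 7.15 in sorted GMP, a difference of 2.37 ± 0.17 (adjusted p = 4.15e-10) toward the sorted LT-HSC mean of 10.71. Hoxa5 was 2.03 higher, Eya1, a transcriptional coactivator and phosphatase, 1.36, Hoxa10 0.90, Hoxa6 0.76, Mef2c 0.66, Hoxa7 0.65 and Hoxa3 0.61. Cdk6, Bcl2, Jmjd1c and Pbx3 were not called, with differences of -0.12, 0.14, 0.16 and 0.22.

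Mecom, which encodes the stem cell factor EVI1, measured 7.16, 7.27 and 7.88 in lines B6-2, B6-3 and B6-1 and between 4.49 and 4.67 in sorted GMP. The groups were far apart, and the difference was 2.89 ± 0.22, a 7.4-fold higher signal (adjusted p = 1.97e-09). Another probe set of the gene gave 1.55. The mean was 9.05 in sorted LT-HSC, 4.79 in the same lines without dox at 72 h and 4.67 in GMP-derived lines with dox.

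Other stem cell genes shared this pattern only in part. Of 20 measured HSC genes, which include Mecom and Meis1, 8 were higher and 1 was lower, with a median of 0.16. Over all genes, 8.78% were called higher and 9.14% lower. All 20 were lower in sorted GMP than in sorted LT-HSC, where 6402 genes (32.1%) were called and 15.3% of all genes were lower. Besides Mecom and Meis1, Angpt1, a ligand of the TEK receptor that stem cells make, was 1.74 higher, Gimap6, a GTPase, 1.64, Mycn 0.93, Gata2 0.62, Ctnnal1 0.48 and Erg 0.46. Hlf, a stem cell factor, fell by 0.68. Procr, Slamf1, Tek, Fgd5 and Prdm16, whose products mark or sustain stem cells, were not called, with differences from -0.25 to 0.05. Slamf1 had means of 3.44 in the lines and 3.4 in sorted GMP, and Tek 4.12 and 4.37. For both genes this compares dim signals below 5.86, the median of all values. Without line B6-1, 5 HSC genes were called higher. Angpt1 then lost its call (adjusted p = 0.0751). Erg lost its call under 7 of 16 alternatives, with an adjusted p of at most 0.173.

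**Figure D3:**
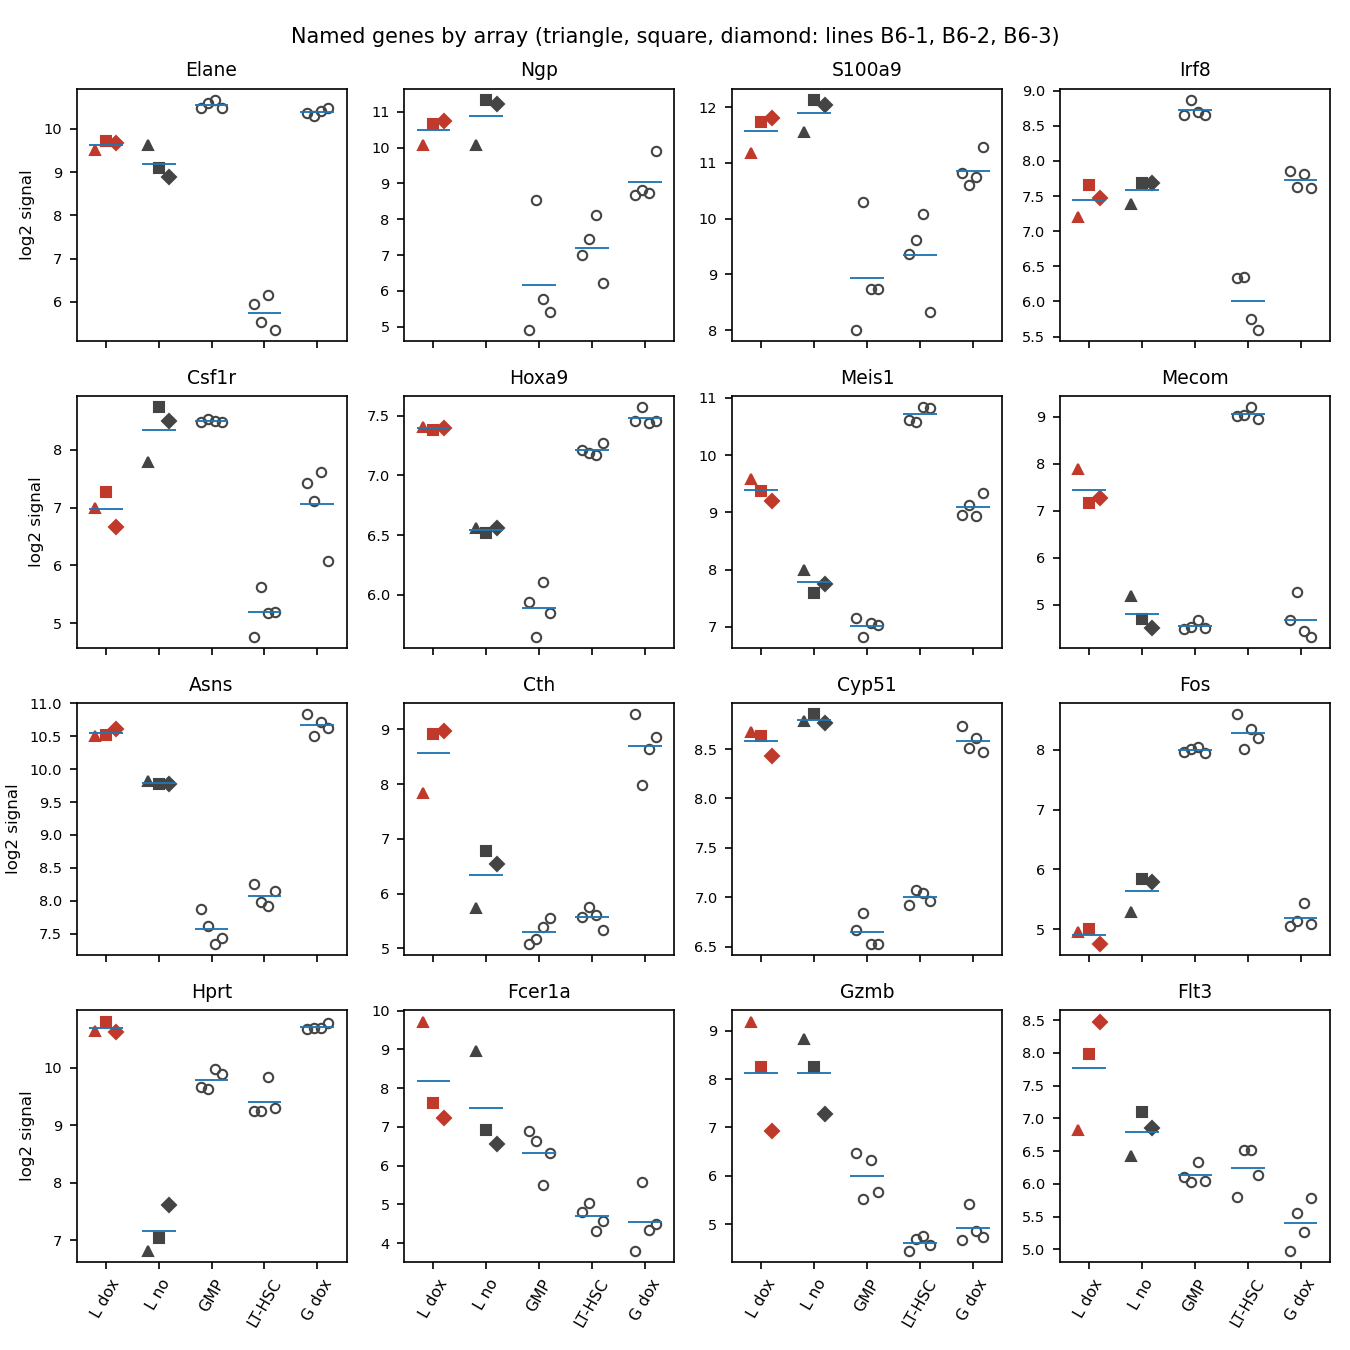
Log2 signal of 16 genes by array in lines of LT-HSC origin with dox at 72 h (L dox, red) and without dox at 72 h (L no), sorted GMP, sorted LT-HSC, and GMP-derived lines with dox at 48 h (G dox), with blue bars at group means and triangles, squares and diamonds for lines B6-1, B6-2 and B6-3. Hoxa9 and Meis1 in the lines with dox lie above sorted GMP, Irf8 and Csf1r lie below it, and Fcer1a is highest in line B6-1.

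Surface markers used to sort progenitors gave a mixed picture. Of 12 measured genes, 3 were higher and 2 lower. Cd34, which GMP carry and the most primitive stem cells lack, measured 9.18, 9.2 and 9.01 in the lines and 9.11, 8.9, 9.14 and 8.99 in sorted GMP. The groups overlapped, and the difference of 0.10 ± 0.25 was not called (adjusted p = 0.864). Kit, the stem cell factor receptor, fell by 0.93 ± 0.16 (adjusted p = 0.000203) and Fcgr3, the Fc receptor that defines GMP, by 0.95 ± 0.12 (adjusted p = 3.57e-06). Both stayed apart from the sorted arrays, with Fcgr3 at 8.06, 7.91 and 7.99 in the lines and 8.78 to 9.05 in sorted GMP, and its mean was 5.29 in sorted LT-HSC. Cd9, a tetraspanin, was 1.35 higher, Flt3 1.63 and Itga2b, the CD41 integrin, 0.48. The Itga2b call was lost under 7 of 16 alternatives, with an adjusted p of at most 0.252.

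Growth factor receptors moved in both directions. Of 14 measured cytokine receptor genes, 6 were lower and 3 higher. Besides Csf1r and Kit, Csf3r, the G-CSF receptor, fell by 0.77, Il6ra by 0.72, Ifngr1 by 0.61 and Csf2ra, the GM-CSF receptor's own chain, by 0.58. The signalling chains Csf2rb and Csf2rb2 were 0.54 and 1.59 higher. Csf2rb2 measured 7.54, 7.66 and 8.37 in the lines and 5.92, 7.04, 5.79 and 6.3 in sorted GMP, where replicate 2 was again the highest. The 2 genes are near-identical copies in mouse, so their probe sets may not tell them apart. Il3ra was not called, with a difference of -0.16.

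Genes of other blood cell types were examined because a sort or a culture can hold such cells. Of 12 mast cell and basophil genes, 3 were higher and none was lower, also at an unadjusted p under 0.05 in limma. Fcer1a, a chain of the IgE receptor, measured 9.72 in line B6-1 but 7.62 and 7.24 in B6-2 and B6-3, and 6.9, 6.63, 5.51 and 6.32 in sorted GMP. All line arrays were above the sorted ones, line B6-1 by far the most, and the difference was 1.85 ± 0.64 (adjusted p = 0.0474). Gzmb, granzyme B, was 2.13 higher and Ms4a2, another IgE receptor chain, 1.31. Without line B6-1, none of these 3 genes was called (adjusted p = 0.102 for Gzmb, 0.248 for Ms4a2 and 0.339 for Fcer1a), and without sorted replicate 2, 3 or 4 the count was 1. The mean over the 12 genes ranged from 6.4 to 7.5 on the line arrays and from 6.1 to 6.49 on the sorted arrays, so the groups overlapped.

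Of 11 MHC class II and dendritic cell genes, 3 were higher: H2-Aa, Cd74 and Flt3. Flt3, 1.63 higher, is the gene given above with the sorting markers. H2-Aa, a class II chain, measured 7.04, 6.91 and 6.84 in the lines and between 5.02 and 5.55 in sorted GMP, a difference of 1.65 ± 0.20 (adjusted p = 2.5e-06). Cd74, the class II invariant chain, was 0.92 higher, a call that was lost without line B6-1 (adjusted p = 0.124). Siglech, Batf3 and Zbtb46, which define dendritic cell types, had means from 5.27 to 5.72 in the lines and differences of at most 0.06. Of 7 megakaryocyte genes 2 were higher, Ppbp and Itga2b, neither of which was called without line B6-1, and leaving out any sorted replicate or line B6-3 left 1 called. Tfrc, the transferrin receptor, and Alas2 were the 2 of 9 erythroid genes called higher, by 0.94 and 0.55. None of 6 eosinophil genes or 9 T and NK cell genes was called by limma, while at an unadjusted p under 0.05 there were 1 lower eosinophil gene and 2 higher T and NK cell genes. Without sorted replicate 4 or line B6-2, 1 T and NK cell gene was called higher. Of 9 B cell genes, Cd79b was lower by 0.40 and the rest were not called. Of 12 stromal and endothelial genes, Sparc, a matrix protein gene, was 1.58 lower and Col1a1 0.26 lower. Sparc measured 5.45, 5.82 and 5.79 in the lines and 7.36, 7.61, 8.41 and 5.69 in sorted GMP, so the groups overlapped through sorted replicate 4. Only 1 stromal gene was called lower without sorted replicate 1, 2 or 3, line B6-2 or line B6-1.

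Ranked over all genes by the naming rule, the largest increase was that of Myl10, followed by Ngp, which is described above with the late neutrophil genes. Myl10, a myosin regulatory light chain gene, measured 11.35, 11.49 and 11.34 in lines B6-2, B6-3 and B6-1 and 6.07, 5.5, 5.86 and 5.78 in sorted GMP. The lines lay tightly together and more than 5 log2 units above every sorted array, with a difference of 5.59 ± 0.22 or 48.2-fold (adjusted p = 8.26e-15). Its mean was 9.11 in sorted LT-HSC. Akr1c18, which inactivates progesterone, was 4.19 ± 0.56 higher (adjusted p = 6.08e-06), and Hpgd, which breaks down prostaglandins, 4.18 ± 0.79 higher (adjusted p = 0.000435). Hpgd ranged from 8.25 in line B6-1 to 10.61 in B6-2. Scin, an actin-severing protein, was 3.78 higher and Socs2, a brake on cytokine signalling, 3.51, while another Socs2 probe set gave 0.70. Mt2, a metallothionein, was 3.41 higher, Il18r1, the interleukin-18 receptor, 3.37, and Cd55, which protects cells from complement, 3.32. Scd1 and Fads2, desaturases of fatty acid synthesis, were 3.71 and 3.36 higher, with Fads2 at 8.58, 8.6 and 8.6 in the lines and 5.01 to 5.49 in sorted GMP.

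The largest decreases were Tceal8, Ifi209 and Adgrl4. Tceal8, a small gene of the transcription elongation factor A-like family, measured 6.39, 4.34 and 4.39 in lines B6-2, B6-3 and B6-1 and between 9.19 and 9.35 in sorted GMP. Every line was below the sorted arrays, B6-2 the least, and the difference was -4.22 ± 0.52 (adjusted p = 2.04e-06). Ifi209, of the interferon-inducible PYHIN family, measured 7.84, 6.2 and 5.27 in the same lines and between 10.22 and 10.58 in sorted GMP, a difference of -3.92 ± 0.59 (adjusted p = 3.03e-05). Members of that family are close copies, so the probe set may not measure Ifi209 alone. Adgrl4, an adhesion receptor, fell by 3.56, As3mt, the arsenic methyltransferase, by 3.25, H2ac4, a histone H2A gene among near-identical copies, by 3.19 and Lipo3, a lipase gene, by 2.69. As3mt was the most uniform of these, at 4.33, 4.25 and 4.36 in the lines and 7.19 to 7.76 in sorted GMP.

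Most immediate early genes, which cells switch on within minutes of a stimulus or of handling, were lower in the lines. Of 18 genes, 13 were lower and 1, Ier3, was higher, with a median difference of -0.97, and these counts were the same whichever array was left out. Jun measured 6.47, 6.3 and 6.15 in lines B6-2, B6-3 and B6-1 and 9.45, 9.47, 9.52 and 9.36 in sorted GMP. The groups were about 3 log2 units apart with little spread in either, a difference of -3.14 ± 0.27 (adjusted p = 1.17e-08). Fosb fell by 3.11, Fos by 3.09, Dusp1, a phosphatase that shuts off MAP kinases, by 2.97, Atf3 by 2.25, Btg2 by 2.24, Klf6 by 1.69 and Zfp36, which destabilizes cytokine mRNAs, by 1.49. Hspa1a, an inducible HSP70 chaperone, fell by 3.02, from a range of 8.47 to 8.9 in sorted GMP to 5.85, 5.56 and 5.72 in the lines. The means of Fos, Jun and Dusp1 were also high in the sorted LT-HSC, at 8.28, 10.05 and 9.66. The sorted cells went through dissociation and sorting and the lines did not, and the part of handling in these differences was not tested.

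Inflammatory genes followed in part. Of 14 NF-kB and inflammatory genes, 7 were lower and 1 was higher. Ptgs2, cyclooxygenase 2, fell by 1.42, Tnfaip3, a feedback inhibitor of NF-kB, by 1.20, Cxcl2 by 0.99, Rela by 0.57 and Nfkbia by 0.40. Il6 was the exception, at 7.07, 6.6 and 8.21 in lines B6-2, B6-3 and B6-1 and 5.22, 4.78, 3.62 and 4.48 in sorted GMP. The groups did not overlap, line B6-1 was highest, and the difference was 2.77 ± 0.61 (adjusted p = 0.00191). Without sorted replicate 2 or line B6-3, 2 genes of this list were called higher. Of 15 interferon response genes, 3 were lower and 1 higher, where 9.14% of all genes were lower and 8.78% higher. Without sorted replicate 1, sorted replicate 3, line B6-3 or line B6-1, 1 was called lower. The count called higher, which was Bst2 alone, was 0 without sorted replicate 2, sorted replicate 4 or any 1 of the lines.

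Most genes of the amino acid response were higher in the lines. This response is run by ATF4, a transcription factor that raises amino acid synthesis and uptake when supply is short. Of 19 measured genes, 16 were higher and none was lower, also at an unadjusted p under 0.05 in limma, with a median difference of 0.67. Asns, asparagine synthetase, measured 10.52, 10.61 and 10.5 in lines B6-2, B6-3 and B6-1 and 7.87, 7.61, 7.35 and 7.44 in sorted GMP. The lines were close together and the groups were far apart, with a difference of 2.98 ± 0.10 or 7.86-fold (adjusted p = 7.51e-16). Cth, which makes cysteine, was 3.27 ± 0.29 higher (adjusted p = 1.89e-08), with 8.91 and 8.97 in lines B6-2 and B6-3 and 7.83 in B6-1. Slc7a11, which imports cystine, was 2.83 ± 0.15 higher (adjusted p = 3.97e-12). Slc7a3, a transporter of cationic amino acids, was 1.98 higher, Mthfd2, a mitochondrial folate enzyme, 1.46, Chac1, which degrades glutathione, 0.99, and Slc7a5, Psph and Psat1 between 0.70 and 0.79. Atf4 itself was 0.44 higher. Ddit3, Slc3a2 and Cbs were not called, with differences of 0.12, 0.07 and 0.09.

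Every measured gene of cholesterol synthesis was higher. All 12 were called, with a median difference of 1.42, and 8 of them were at least 2-fold higher, while 1.36% of all genes were called that much higher. The count was 11 or 12 whichever array was left out. Idi1, an early step of isoprenoid synthesis, measured 8.25, 8.03 and 8.42 in the lines and 6.06, 6.22, 6.74 and 6.05 in sorted GMP. Every line was above every sorted array, and the difference was 1.97 ± 0.14 (adjusted p = 3.68e-10). Cyp51, which demethylates lanosterol, measured 8.63, 8.43 and 8.67 in the lines and 6.53 to 6.84 in sorted GMP, a difference of 1.94 ± 0.09 (adjusted p = 1.29e-13). Sqle, squalene epoxidase, was 1.90 higher, Sc5d 1.77, Fdft1, squalene synthase, 1.73, Hmgcs1, which makes the precursor of mevalonate, 1.56, Lss 1.27 and Fdps 1.05. Srebf2, the transcription factor that turns this pathway on, was 0.85 higher, Insig1, which holds that factor back, 0.64, and Mvd 0.40. Another probe set of Idi1 gave 0.85.

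Both of these gene groups have known regulators, so promoter letters are shown for members that hold the regulator's motif. The 250 bases before the start were searched on both strands for the sterol regulatory element TCACNCCAC, which SREBP factors bind, in the cholesterol genes and for the ATF4 element TGATGNAA in the amino acid genes. Sequences are from RefSeq on build GRCm38.p6 and run 5′ to 3′ along the gene's strand, with the matches in capitals. The sterol element was found in 1 of 9 cholesterol genes that had a promoter sequence (11.1%), and in 1.22% of all 27025 genes that had one. The ATF4 element was found in 3 of 16 amino acid genes with a sequence (18.8%), and in 3.91% of all 27025 genes. These matches are a description of letters in a short window. The windows are Hmgcs1 at chr13:119690101-119690350 on the plus strand, Chac1 at chr2:119350992-119351241 on the plus strand, Slc7a11 at chr3:50443614-50443863 on the minus strand and Asns at chr6:7693210-7693459 on the minus strand.
Hmgcs1: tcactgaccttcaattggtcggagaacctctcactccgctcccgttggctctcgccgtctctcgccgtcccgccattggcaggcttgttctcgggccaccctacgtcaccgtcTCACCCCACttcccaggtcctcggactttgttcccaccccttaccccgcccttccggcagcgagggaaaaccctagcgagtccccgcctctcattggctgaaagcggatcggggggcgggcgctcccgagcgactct
Chac1: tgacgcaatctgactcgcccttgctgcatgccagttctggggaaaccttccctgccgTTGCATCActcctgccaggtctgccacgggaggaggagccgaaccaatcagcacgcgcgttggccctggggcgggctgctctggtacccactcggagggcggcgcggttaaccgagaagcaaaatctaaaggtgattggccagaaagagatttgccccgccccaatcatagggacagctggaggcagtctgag
Slc7a11: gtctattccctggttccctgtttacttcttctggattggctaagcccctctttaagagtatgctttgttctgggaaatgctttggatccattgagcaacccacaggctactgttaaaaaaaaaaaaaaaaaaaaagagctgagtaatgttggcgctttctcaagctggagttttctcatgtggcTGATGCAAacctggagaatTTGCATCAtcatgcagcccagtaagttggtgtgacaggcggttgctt
Asns: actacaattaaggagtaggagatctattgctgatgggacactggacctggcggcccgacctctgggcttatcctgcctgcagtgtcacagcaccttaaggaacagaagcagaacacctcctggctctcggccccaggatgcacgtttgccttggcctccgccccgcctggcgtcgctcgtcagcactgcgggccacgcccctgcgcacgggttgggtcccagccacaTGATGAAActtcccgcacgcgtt
The match in Hmgcs1 began 137 bases before the start, that in Chac1 193, the first of 2 in Slc7a11 66 and that in Asns 23. In the lines these 4 genes were higher by 1.56 (Hmgcs1), 0.99 (Chac1), 2.83 (Slc7a11) and 2.98 (Asns) on the log2 scale.

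Of 14 measured glycolysis and hypoxia genes, 9 were higher and none was lower by limma's adjusted p, with 1 lower at an unadjusted p under 0.05, and the median was 0.42. Bnip3, a hypoxia-induced mitophagy receptor, was the only 1 of these 14 called at least 2-fold higher, at 8.89, 9.28 and 9.86 in lines B6-2, B6-3 and B6-1 and 6.51 to 6.83 in sorted GMP, a difference of 2.65 ± 0.28 (adjusted p = 3.38e-07). Vegfa was 0.91 higher, Slc2a1, the main glucose transporter, 0.87 and Ldha 0.82. Hk2 and Pkm were not called, with -0.13 and 0.03. Of 17 glutathione and oxidant response genes, 6 were higher and 5 lower. Gsta4, a transferase of lipid aldehydes, was 1.93 higher and Gclm, which limits glutathione synthesis, 0.82, whereas Gstm1 and Gpx1 fell by 0.95 and 0.94 and Gsr by 0.78. The count called lower was 3 without sorted replicate 1, sorted replicate 2, line B6-2 or line B6-1. Of 17 respiratory chain genes 2 were lower, where 9.14% of all genes were lower. They were Atp5a1, by 0.39, and Uqcrc1, by 0.29. Without line B6-2 the Uqcrc1 call was lost (adjusted p = 0.0537).

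**Figure D4:**
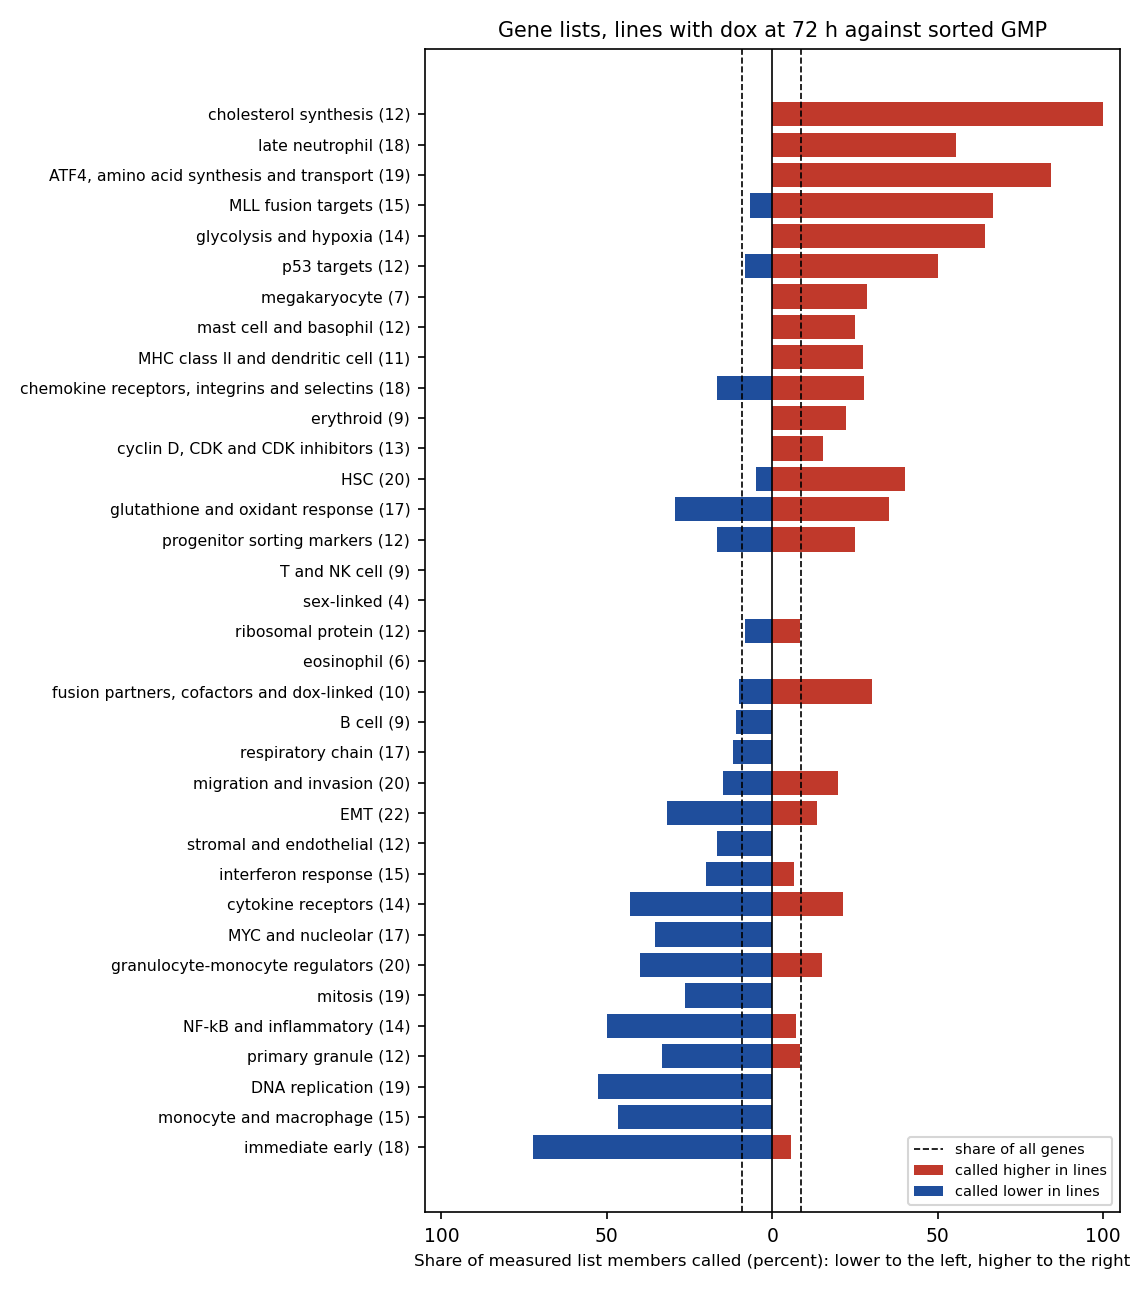
Share of the measured members of each of 35 gene lists (number measured in parentheses) called higher (red, right) or lower (blue, left) in lines of LT-HSC origin with dox at 72 h than in sorted GMP, with dashed lines at the shares over all genes, 8.78% higher and 9.14% lower. Cholesterol synthesis genes were all called higher and 13 of 18 immediate early genes were called lower.

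Some cell cycle genes were lower in the lines. Of 19 DNA replication genes, 10 were lower by limma's adjusted p and none was higher, with 1 higher at an unadjusted p under 0.05 and 1 called higher without line B6-1. The median was -0.29, and none of the 10 was 2-fold lower. Cdc6, which loads the replicative helicase, measured 8.02, 7.8 and 7.87 in the lines and 8.41, 8.41, 8.38 and 8.46 in sorted GMP. The groups did not overlap, and the difference was -0.52 ± 0.11 (adjusted p = 0.000875). Prim1, primase, fell by 0.50, and helicase subunits Mcm2 to Mcm7 fell by 0.25 to 0.49. Of 19 mitosis genes, 5 were lower and 14 not called. Mki67, the antigen used to mark dividing cells, measured 9.87, 9.75 and 9.82 in the lines and 10.24 to 10.42 in sorted GMP, a difference of -0.53 ± 0.10 (adjusted p = 0.000308). Cdk1, Ccnb2 and Top2a were not called, with 0.08, 0.29 and -0.18. The count of mitosis genes called lower was 2 without sorted replicate 2 or line B6-1 and 3 without sorted replicate 3, line B6-2 or line B6-3.

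Of 13 cyclin D, CDK and CDK inhibitor genes, 2 were higher, where 8.78% of all genes were higher. Ccnd2 was 0.88 ± 0.13 higher (adjusted p = 3.15e-05) and Cdkn1b, which encodes the inhibitor p27, 0.94 ± 0.17 higher (adjusted p = 0.000315), though another Cdkn1b probe set gave -0.03. Without line B6-1, 4 genes of this list were called higher. Of 12 p53 target genes, 6 were higher and 1 lower, with a median of 0.39. Perp was 1.82 higher, Trp53inp1 1.42, Ccng1 0.83, Fas 0.71, Zmat3 0.64 and Sesn2 0.49, the last of which is also an ATF4 target. Mdm2 fell by 0.23, and the count called lower was 0 without sorted replicate 1, 2 or 4 or any 1 of the lines. Bbc3 and Pmaip1, which trigger cell death, were not called, with -0.10 and 0.29.

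Of 17 MYC and nucleolar genes, 6 were lower and none was higher, also at an unadjusted p under 0.05 in limma. Utp20 fell by 0.41 and the other 5 by less. Without line B6-3 the count was 3. Myc measured 10.39, 10.45 and 10.35 in the lines and 10.07 to 10.35 in sorted GMP, and its difference of 0.18 ± 0.11 was not called (adjusted p = 0.313). Of 12 ribosomal protein genes, Rpl13 was higher by 0.33 and Rplp0 lower by 0.19. Rplp0 lost its call under 8 of 16 alternatives, with an adjusted p of at most 0.227. Ribosomal protein genes have many processed copies, and the other 8 probe sets of Rpl13 gave differences from -0.09 to 0.86.

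EMT (epithelial-mesenchymal transition) genes were examined because the study's title names them. Of 22 measured genes, 7 were lower and 3 higher, whichever array was left out. The 3 were Cdh1, the epithelial cadherin, by 1.01 ± 0.17 (adjusted p = 0.000112), Zeb1, which represses it, by 0.98 ± 0.14 (adjusted p = 2.18e-05), and Tcf4 by 0.80. Zeb1 measured 7.15, 7.38 and 7.61 in lines B6-2, B6-3 and B6-1 and 6.42, 6.36, 6.55 and 6.28 in sorted GMP, with no overlap. Fn1, fibronectin, measured 6.23, 6.61 and 5.39 in the lines and 8.67, 9.8, 8.06 and 8.58 in sorted GMP. It fell by 2.70 (adjusted p = 3.01e-05), and by 2.36 without sorted replicate 2, its highest array. Zeb2 fell by 0.87, Tgfbi by 0.98, Tgfb1 by 0.62 and Vim, vimentin, by 0.59. Snai1, Snai2 and Twist1 were not called, with differences from -0.13 to 0.06. Of 20 migration and invasion genes, 4 were higher and 3 lower, where 8.78% of all genes were higher and 9.14% lower. Besides Mmp8 and Itgb2, Ctsl was 0.81 higher and Adam8 0.63, and Rhob fell by 1.26.

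Of 10 genes of fusion partners, cofactors and the dox system, 3 were higher and 1 was lower. Kmt2a, whose human copy gives MLL to the fusion, measured 8.81, 8.87 and 9 in the lines and 9.11 to 9.26 in sorted GMP. It fell by 0.28 ± 0.08 (adjusted p = 0.0127), a call that was lost without line B6-2 (adjusted p = 0.0807), and without line B6-1, 2 genes of the list were called lower. Mllt3, the mouse AF9 gene, was not called, with 0.24 ± 0.12 (adjusted p = 0.186), and which of these probe sets could detect the fusion was not determined. Hprt, a purine salvage enzyme gene, measured 10.8, 10.61 and 10.64 in the lines and 9.66, 9.62, 9.97 and 9.88 in sorted GMP, a difference of 0.90 ± 0.16 (adjusted p = 0.000297). In the same lines without dox its mean was 7.15, and with dox it was 3.54 ± 0.16 higher than without, the reason for which was not tested. Aff1, an elongation factor partner, was 0.47 higher, but another of its probe sets gave -0.45 and the mean of both was not called (adjusted p = 0.936). Aff4 was 0.30 higher and lost its call without line B6-3 or line B6-1.

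The 3 lines resembled each other over most genes. Pearson's r between replicate arrays was 0.988 to 0.989 among the lines and 0.987 to 0.991 among sorted GMP, across genes, which are not independent. The median SD of a gene was 0.102 in the lines and 0.098 in sorted GMP, but 24 genes had an SD above 1 among the lines and 2 among sorted GMP. The genes that varied most were singled out after their values were seen. Stfa3, a stefin A gene among close copies, measured 8.26, 7.81 and 4.84 in lines B6-2, B6-3 and B6-1, and Gem, a small GTPase, 7.65, 8.43 and 5.62. Ccl24, an eosinophil chemokine, measured 5.97, 5.76 and 8.19, and Tph1, the serotonin synthesis enzyme of mast cells, 4.55, 4.52 and 6.86. Line B6-1 stood apart in these 4 genes as in Fcer1a, and line B6-2 stood apart in Psma8, a testis proteasome subunit, at 7.67 beside 4.52 and 4.62.

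Lines of the same origin without dox at 72 h, lines with dox at 48 h and GMP-derived lines with dox at 48 h were each set against the same 4 sorted GMP arrays, so the comparisons share these arrays. The called genes numbered 4500 (22.6%) without dox, 2344 (11.8%) with dox at 48 h and 3943 (19.8%) for the GMP-derived lines. The numbers of arrays differ, with 3, 2 and 4 lines, and the count at 48 h was 1318 without the LT-HSC-derived line B6-2 and 1271 without the LT-HSC-derived line B6-3. In the lines without dox, 16 of 18 late neutrophil genes and 6 of 15 monocyte genes were higher than in sorted GMP, as were 10.8% of all genes, and 5 of 15 MLL target genes were higher and 3 lower. All 12 cholesterol genes were higher without dox, and all 12 in the GMP-derived lines, where 10% of all genes were higher. Immediate early genes were lower for 11 of 18 without dox and for 14 of 18 in the GMP-derived lines, beside 11.8% and 9.76% of all genes.

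Lines with dox were also compared directly with lines without dox at 72 h, where 1425 genes (7.15%) were called between lines with and without dox. The count was 859 without line B6-2 and 901 without line B6-1 among the arrays with dox, and 903 without line B6-2 among those without dox. Both groups hold lines B6-1, B6-2 and B6-3, and the fit did not pair the arrays of a line. Deviations from the group means correlated between the arrays of a line at r = 0.321 for B6-2, -0.057 for B6-3 and 0.261 for B6-1. Of 15 MLL target genes 10 were higher with dox and none was lower, where 3.43% of all genes were higher. Of 18 late neutrophil genes 6 were lower with dox, and of 15 monocyte genes 8, where 3.72% of all genes were lower. With dox, Mecom was 2.64 higher (adjusted p = 3.73e-07), Meis1 1.61 higher (adjusted p = 5.31e-06), Hoxa5 1.26 higher (adjusted p = 0.000214) and Hoxa9 0.85 higher (adjusted p = 3.99e-06). Csf1r fell by 1.36 with dox (adjusted p = 0.00658), from a mean of 8.33 without dox, which is near the sorted GMP mean of 8.50. Fn1 fell by 2.89 (adjusted p = 0.000169) and H2-Aa and Cd74 by 2.40 and 2.42. Myl10 was 10.63 without dox, Asns 9.79 and Cyp51 8.80, so these genes were also above sorted GMP without dox. Elane, Irf8 and Ngp were not called between lines with and without dox, with differences of 0.43, -0.15 and -0.38.

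Origin was tested at 48 h with dox, where 421 genes (2.11%) were called between LT-HSC-derived and GMP-derived lines. The GMP-derived lines are B6-1, B6-2, B6-3 and F6-6, so 3 of their names are also names of LT-HSC-derived lines, and the labels do not say whether a shared name means a shared animal. The fit did not pair them. Higher in lines of LT-HSC origin were Scin, by 3.97 (adjusted p = 1.72e-09), Il18r1, by 3.43 (adjusted p = 7.97e-07), Flt3, by 2.80 (adjusted p = 3.72e-06), Mecom, by 2.70 (adjusted p = 5.36e-07), and Zeb1, by 2.37 (adjusted p = 1.91e-09). Tceal8 was lower by 3.29 (adjusted p = 0.00168). Cd34 was 1.42 higher (adjusted p = 0.00593), and the means were 9.13 in LT-HSC-derived lines at 72 h, 7.74 in GMP-derived lines and 9.03 in sorted GMP. Hoxa9, Meis1, Asns, Cyp51 and Fos were not called between the origins, with differences of -0.06, 0.23, -0.15, -0.05 and -0.35. The 48 h group of LT-HSC origin holds 2 lines, B6-2 and B6-3, and the count of called genes was 237 without the LT-HSC-derived B6-2 and 110 without the LT-HSC-derived B6-3.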

How the data were processed

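RNA was isolated with the PicoPure kit, per the labels' protocols, amplified and hybridised to Affymetrix mouse arrays. The values are log2 signals per probe set as the authors deposited them, and limma and R 3.1.1 are named per the submitters' processing notes. Background correction, summarisation, normalization and genome build were not found in the labels or files. Of 34760 probe sets, 21640 had 1 gene symbol in the platform annotation, 1321 had several and 11799 had none. Probe sets with 1 symbol were used, and for 954 genes with more than 1 the brightest was kept, giving 19937 genes. No value was rescaled or filtered.

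The model held a mean for each of 8 groups over 26 arrays and was run in R 4.3.3 with limma 3.58.1, with moderated tests (lmFit, eBayes) and Benjamini-Hochberg adjustment over all 19937 genes. A gene was called at an adjusted p under 0.05. Arrays carry no read depth, so their number limits the precision. The steps were tested on simulated data. Named genes were the called genes without overlap between arrays that differed most, at most 12 in each direction, if their higher group exceeded the median of all values and they were not predicted genes, up to 3 called members with the largest difference in each gene list, and a short fixed list. Other list members named were chosen after their values were seen. The comparison and the 35 gene lists were chosen with earlier results of these data known. Alternatives were a filter on dim genes, quantile normalization, median centring, a trended prior, a fit on the compared groups only, array weights, the mean of all probe sets of a gene, the line as a random block, the replicate number as a block, and leaving out each array. RefSeq's gene table and promoter sequences on GRCm38.p6 served for names and sequences. Figures were drawn with matplotlib 3.10.9.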

Additional observations from a re-analysis of the deposited data

Results flagged for a closer look

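In sorted GMP, 5 of the named genes had 1 array far from the other 3, measured by its gap to the nearest array over the whole range. Chance alone marks about 1 in 20 such groups, and 112 named genes were examined. Fosb measured 8.3 in replicate 4 and 8.74 to 8.81 in the others. Ms4a6c measured 10.55 in replicate 3 and 10.76 to 10.8 in the others. Itgb2 measured 7.24 in replicate 2 and 6.6 to 6.65 in the others. Mx1 measured 4.59 in replicate 2 and 4.42 in the others. Vegfa measured 7.2 in replicate 4 and 7.48 to 7.5 in the others.

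For 23 of 112 named genes the difference from sorted GMP with dox at 48 h differed between lines of LT-HSC and of GMP origin. The call is by limma's test of that difference with adjustment over all genes, which called 421 of 19937 genes (2.11%). Named genes outside the short fixed list were chosen because LT-HSC-derived lines differed from sorted GMP. That choice favours differences between the origins, so the 2 shares are not alike. The values are LT-HSC-derived minus GMP-derived on the log2 scale, and both origins share the 4 sorted GMP arrays. Larger in lines of LT-HSC origin were Scin by 3.97 (adjusted p = 1.72e-09), Il18r1 by 3.43, Akr1c18 by 3.02, Il6 by 2.99, Angpt1 by 2.83, Flt3 by 2.8, Cd55 by 2.8, Mecom by 2.69, Zeb1 by 2.37 and H2-Aa by 2.04. Smaller excesses were those of Id2 by 1.55, Cd34 by 1.42, Perp by 1.36, Myl10 by 1.19, Cd9 by 0.96, Cdh1 by 0.95, Itga6 by 0.94, Socs2 by 0.88, Gsta4 by 0.74 and Ccnd2 by 0.64. Tceal8, Cst7 and Fcgr3 went the other way, with -3.29, -0.81 and -0.69. The adjusted p of these 23 genes reached 0.0482, that of Id2. Scin was 3.7 above sorted GMP in lines of LT-HSC origin and -0.27 in lines of GMP origin, while Myl10 was above sorted GMP in both, by 5.45 and 4.26. Zeb1 lay 0.9 above sorted GMP in lines of LT-HSC origin and at -1.47 in lines of GMP origin.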

How the results depend on the processing

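The count of genes called between the lines with dox and sorted GMP was 3572 and ranged from 3493 with the replicate number as a block to 4419 with array weights, and from 2753 to 3152 when 1 array was left out (higher 1383 to 1572, lower 1370 to 1613, at least 2-fold 366 to 399). The labels do not say whether a replicate number shared by a line and a sorted sample means anything more. The deviations of same-numbered arrays correlated at -0.052, -0.026 and 0.03. These values cannot settle it, because the arrays of line B6-3 with and without dox at 72 h also correlated at only -0.057. The replicate block reversed Cd34 to -0.045 (adjusted p = 0.927 in limma), which was not called either way. With 1 array left out the counts ranged from 5588 to 6733 for the lines over LT-HSC, from 5870 to 6292 for GMP over LT-HSC, from 3702 to 4191 for lines without dox over GMP, from 1271 to 2097 for lines with dox at 48 h over GMP and from 3393 to 3563 for GMP-derived lines over GMP. They ranged from 110 to 355 between the origins and from 859 to 1329 between dox and no dox at 72 h. That last count was 647 with only the compared groups in the fit and 2241 with array weights. The cause was not tested. The count with an interval within 2-fold ranged from 18859 to 18947 with 1 array left out and was 10715 with the filter on dim genes, where fewer genes were tested. The level of the LT-HSC-high genes in the lines was 5.597 with that filter and 5.589 with quantile normalization, and that of the GMP-high genes 8.533 with quantile normalization and 8.877 with median centring. These genes were chosen anew in each setting. Named genes outside the short fixed list were chosen because they were called in these same arrays, which favours keeping the call. Of 106 called named genes, 88 were called under every alternative that tested them. The other 18 lost the call under at least 1: Angpt1, Gzmb, Ppbp, Cd74, Fcer1a, Ms4a2, Itga2b, Col1a1, Kif23, Cad, Rplp0, Uqcrc1, Ifit2, Mx2, Aff1, Aff4, Kmt2a and Erg.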
